A study of Mus musculus with 5 samples.

Results

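Conjugating and aldehyde-handling detoxification enzymes were examined in mouse embryos at the 2-cell stage by RNA-seq. The genes were taken by symbol from the deposited table: glutathione S-transferases (Gst), UDP-glucuronosyltransferases of the Ugt1 and Ugt2 families, cytosolic sulfotransferases (Sult), aldehyde dehydrogenases (Aldh) and aldo-keto reductases of the Akr1 family. These patterns matched 100 of the 32285 symbols, with 23 in the glutathione, 19 in the glucuronide, 21 in the sulfate, 21 in the aldehyde and 16 in the aldo-keto family. Oocytes of superovulated females aged 6 to 9 weeks were fertilised in vitro for about 6 h with sperm of males aged 12 to 16 weeks. Zygotes with both pronuclei then spent 24 h in KSOM medium that held either 25 nM PNMC (3 libraries) or an equal volume of its solvent DMSO (2 control libraries). The labels name no strain, and they do not spell out the abbreviation PNMC. They do not say how many embryos each library pooled or whether libraries came from separate cultures, so each p-value reflects library-to-library spread alone, and that spread may be technical. In such bulk libraries, fewer cells of a kind and less RNA per cell cannot be told apart.

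Cells clear reactive compounds by making them more soluble. Glutathione S-transferases couple electrophiles to the tripeptide glutathione, UDP-glucuronosyltransferases attach glucuronic acid, and sulfotransferases attach sulfate taken from the activated donor PAPS. Aldehyde dehydrogenases oxidise aldehydes to acids, while aldo-keto reductases reduce aldehydes and ketones to alcohols. All of these families are best known from liver, gut and kidney, and several members serve ordinary metabolism as well, such as the synthesis of retinoic acid, carnitine or proline.

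The deposited values were normalised levels with no stated unit, and sequencing depth is therefore unknown. Values summed to between 446010 and 454548 in each library, and each library listed between 17408 and 18595 genes above 0, the most in control library 2. Across 10758 protein-coding genes with a mean of at least 1, the median level was 12.03 among the 2152 with the shortest transcripts and 5.61 among the 2151 with the longest. Since scaling by length is not stated, levels of different genes are given as listed and no order between genes was tested. All 18 markers of oocytes and the 2-cell stage passed the filter on low values, which asked for a value of 1 or more in 2 or more libraries, and their summed level ran from 9844 to 10290 in controls and from 9984 to 10610 after PNMC. Of 18 cumulus cell markers, 4 passed, and Ptx3, Amh, Inhba, Foxl2 and Hsd17b1 were listed at 0 throughout. The summed cumulus level, mostly from Nr5a2 and Amhr2, was 53.2 and 60.5 in controls and 48.2 to 56.9 after PNMC. Sperm markers summed to 140.4 and 147.9 in controls and 132.9 to 161.6 after PNMC, mostly from Odf2. Of these 18 markers, 5 passed, and Prm1, Tnp2, Smcp and Catsper1 were at 0. The groups did not overlap in 3 of the 5 (19.9% of all genes), with Prm2 higher and Pgk2 and Tssk6 lower after PNMC. Prm2 was at 3.91 and 4.02 in controls and 5.19, 5.79 and 4.54 after PNMC. Pgk2 was at 5.15 and 6.78 in controls and 2.67, 4.998 and 0.0392 after PNMC. Of 14 blood and immune markers 2 passed (sums of 9.76 and 13.1 in controls and 6.70 to 10.5 after PNMC), and of 14 oviduct markers 5 passed (401.6 and 454.2 in controls and 386.0 to 480.0 after PNMC, mostly from Tubb4b). The part of these other cell types in the results was not tested.

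Detection differed widely between the families. Across all members, 31 of 100 were listed at 0 in every library, the same share as in the whole table (31%). Another 32 were above 0 somewhere without passing the filter, and 37 passed it, or 37.0% against 39.4% of the whole table. In the glucuronide family 14 of 19 genes were listed at 0 throughout and 1, Ugt2b38, passed. In the sulfate family 10 of 21 genes were at 0 and 6 passed. By contrast, 13 of 23 glutathione genes, 10 of 21 aldehyde genes and 7 of 16 aldo-keto genes passed, and every aldehyde dehydrogenase was above 0 in at least 1 library. A value of 0 may stand for an undetected transcript or for an estimate that failed. Arsa, a lysosomal enzyme of most cells, was also listed at 0 in all 5 libraries.

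**Figure D1:**
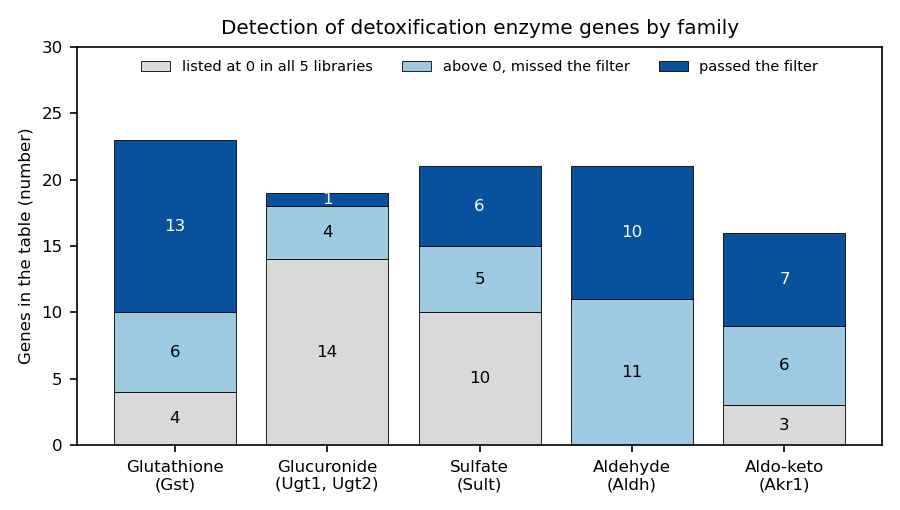
Number of member genes per family (vertical axis) by how they were listed in the 5 libraries; the segments stand for genes at 0 in every library, genes above 0 that missed the filter, and genes that passed it. The glucuronide family has 14 of 19 genes at 0, whereas the aldehyde family has none.

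Few members reached high values. The mean over the 5 libraries was at least 10 in 12 members, or 12.0%, against 16.5% of the whole table, and at least 50 in 4, namely Akr1b3, Aldh9a1, Gstm5 and Akr1a1. The other 25 genes that passed had means under 10. Just inside the filter stood Aldh1b1 and Aldh1l1, which passed through their PNMC values alone, so the filter itself favoured higher values there. Just outside it stood 3 genes with a single library at 1 or more: Aldh1a3, a retinaldehyde dehydrogenase (3.07 in PNMC library 2), Akr1c19 (1.52 in control library 2) and Aldh16a1 (1.01 in control library 1).

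**Figure D2:**
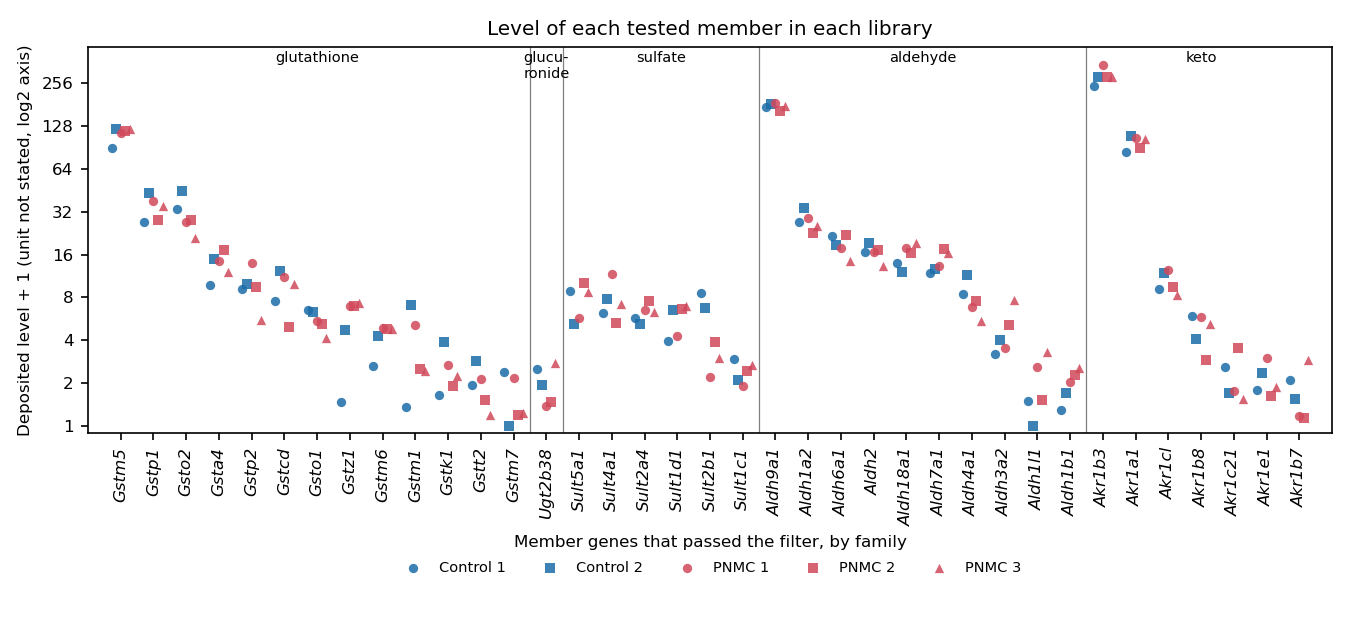
Deposited level plus 1 on a log2 axis (vertical, unit not stated) of each of the 37 members that passed the filter (horizontal, by family); each point is 1 library, blue for control and red for PNMC. Points of both groups intermix in most genes, and Akr1b3, between 243 and 342, stands highest.

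No member passed the test of PNMC against control. With limma on log2(value + 1), 0 of the 37 members had a Benjamini-Hochberg adjusted p under 0.05, as did 0 of all 12734 genes tested (0%), and the lowest adjusted p among members was 0.866. Before adjustment, 3 members were under 0.05 in limma, or 8.11% against 4.99% of all genes. They were Gstz1, higher after PNMC (1.73% of all genes), and Sult2b1 and Gsto2, lower (3.27% of all genes). The fitted change was above 0 in 18 members and below 0 in 19. Its median was -0.03 on the log2(value + 1) scale against -0.05 over all tested genes. Without Aldh1b1 and Aldh1l1, these counts were 16 and 19, and the median of the members was -0.030. The groups did not overlap in 11 members, or 29.7%, against 19.9% of all genes. PNMC values lay entirely higher in 7 of them (18.9% of members against 7.97% of all genes), 2 of which are Aldh1b1 and Aldh1l1, and entirely lower in 4 (10.8% against 11.9%).

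**Figure D3:**
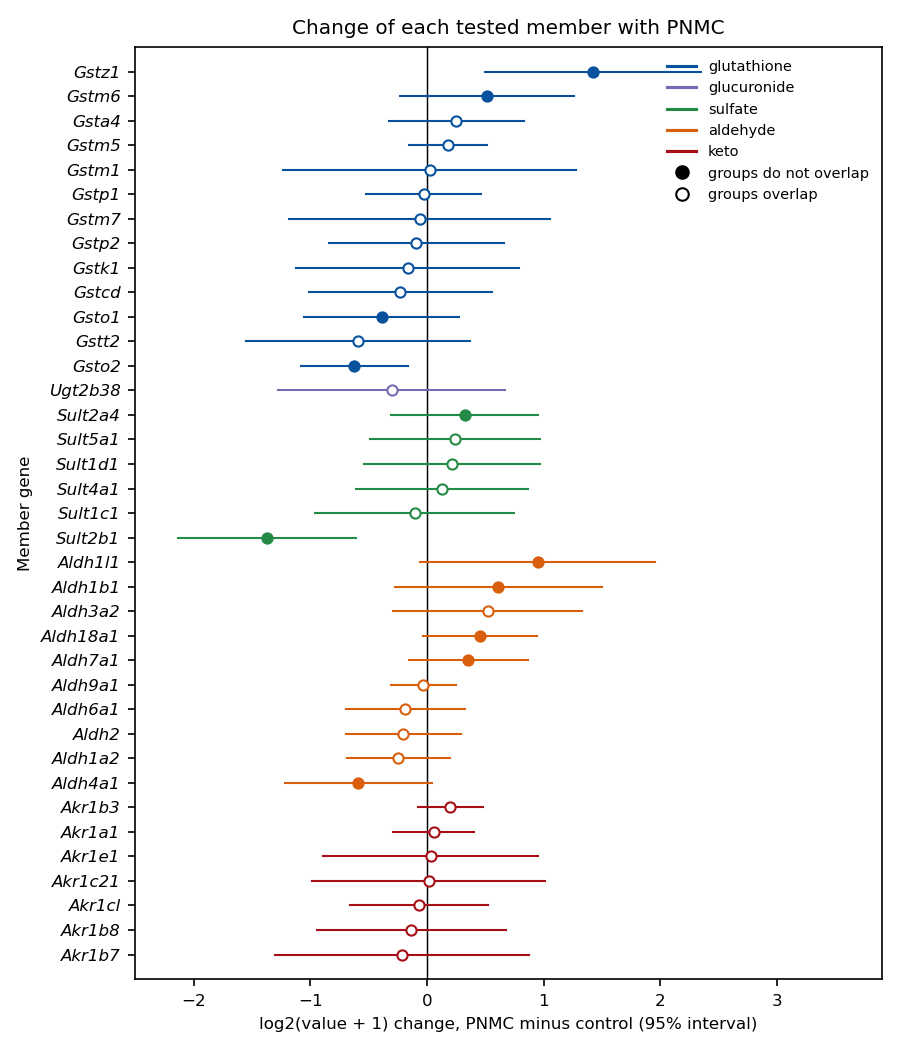
Fitted log2(value + 1) change, PNMC minus control (horizontal axis), with limma's 95% confidence interval for each tested member (vertical axis), coloured by family; filled points mark genes whose groups do not overlap. The intervals of Gstz1, Gsto2 and Sult2b1 leave out 0, and none of the 3 passed the adjusted threshold.

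Single libraries moved the change of many members. In 26 of the 37 members the controls differed from each other by more than the fitted change. The median size of that control difference was 0.40 on the log2(value + 1) scale, against 0.21 for the change with PNMC. A difference between 2 single libraries varies more than one between group means, so these values cannot rank the spread against the change. With 1 library left out, the sign of the change turned in 19 of the 37. Control library 1 held the lowest value of 13 members, and control library 2 the highest of 10. Shares over all genes were not worked out for these counts. The 95% interval lay within 1 log2 unit in either direction for 11 of the 12 members with a mean of at least 10, but for 9 of the 25 members below that mean.

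Among the glutathione S-transferases, Gstm5 of the mu class had the highest listed level. Of the 13 that passed the filter, 5 had higher and 8 lower fitted values (median log2 change -0.062). Gstm5 was listed at 89.3 and 120.1 in control libraries 1 and 2 and at 113, 118 and 122 in PNMC libraries 1, 2 and 3. Control library 1 was the lowest of the 5 and control library 2 lay inside the PNMC range, and the log2 change was 0.18 (95% interval from -0.16 to 0.52), and -0.031 without control library 1. Its exons overlap 4933431E20Rik on the opposite strand, which was at 0.0208 and 0.593 in controls and 4.12, 0.902 and 1.55 after PNMC. The stretch upstream of its annotated start is shown with those of Aldh9a1, the carnitine synthesis enzyme, and Aldh1a2, the retinoic acid synthesis enzyme, because these 3 of the better expressed members hold the core of an antioxidant response element (TGACNNNGC, searched on both strands). That element is the site through which Nrf2 is known to act on detoxification genes. Capitals mark the core, 5′ to 3′ on the gene's strand, from RefSeq on GRCm38.p6, which is not the build that the submitters' processing notes name (GRCm39).
Gstm5 (chr3:107895786-107895845, plus strand): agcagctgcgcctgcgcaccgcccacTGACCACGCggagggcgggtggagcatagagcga
Aldh9a1 (chr1:167349878-167349937, plus strand): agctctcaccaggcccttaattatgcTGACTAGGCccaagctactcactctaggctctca
Aldh1a2 (chr9:71215651-71215710, plus strand): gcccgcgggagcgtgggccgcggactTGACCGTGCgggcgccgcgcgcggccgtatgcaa
The core starts 42, 87 and 112 bases before the annotated start in Gstm5, Aldh9a1 and Aldh1a2. Of the 85 members with a promoter in the table, 6 (7.06%) held it within the 250 bases before a start, against 11.5% of all genes. The core of the xenobiotic response element, through which the Ah receptor acts (GCGTG, both strands), was found in 18 of the 85 (21.2%), against 30.9% of all genes. In the printed Gstm5 stretch its reverse complement overlaps the last 5 bases of the capitals. A match is a description of the letters and not evidence of binding.

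The pi class was present as a pair of adjacent genes. Gstp1 was listed at 26.1 and 42.3 in controls and 37.4, 27.1 and 34.2 after PNMC, so that control library 2 was highest and control library 1 lowest, and the groups overlapped. For Gstp2 the control values were 8.23 and 9.01 and the PNMC values 13.01, 8.47 and 4.52, with PNMC library 1 highest and PNMC library 3 lowest. Their transcripts share 62.3% of the 50-base stretches of Gstp1, so reads could be split between them and both values are uncertain. The bases before their starts are printed to show how alike the copies are. Capitals mark an AP-1-like site followed by GC, chosen after these sequences were seen.
Gstp1 (chr19:4037913-4038012, minus strand): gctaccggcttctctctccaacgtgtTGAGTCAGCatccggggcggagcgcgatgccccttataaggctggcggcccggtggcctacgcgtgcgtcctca
Gstp2 (chr19:4042222-4042321, minus strand): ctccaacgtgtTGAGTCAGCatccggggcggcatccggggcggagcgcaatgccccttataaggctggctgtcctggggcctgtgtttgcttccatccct
Over the 100 bases before the start the copies were identical at 74 of 115 aligned positions (64.3%), and over 250 bases at 208 of 265 (78.5%). The site TGAGTCAGC was present upstream of no other member, and upstream of 0.407% of all genes. The third gene of that row, Gstp3, was above 0 only in control library 2 (0.760).

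Both omega class enzymes, which include the dehydroascorbate reductases, had lower values after PNMC without overlap. Gsto2 was listed at 32.7 and 43.5 in controls and at 26.02, 27.2 and 19.96 after PNMC. Its log2 change was -0.62 (SE 0.21, 95% interval from -1.08 to -0.16, limma adjusted p = 0.967). Its neighbour Gsto1 was at 5.58 and 5.32 in controls and 4.51, 4.22 and 3.15 with PNMC, a log2 change of -0.39 (limma adjusted p = 0.993). For both genes PNMC library 3 held the lowest value. Without control library 2, the higher of the controls for Gsto2, its change was -0.42.

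Gstz1, the maleylacetoacetate isomerase of tyrosine breakdown, had the largest positive change of any member. It was listed at 0.468 and 3.74 in control libraries 1 and 2. After PNMC it was at 5.99, 5.93 and 6.32. The PNMC values were close together and above both controls, while control library 1 was far below control library 2. The log2 change was 1.42 (SE 0.43, 95% interval from 0.50 to 2.35, limma adjusted p = 0.901), and it was 0.58 without control library 1 and 2.27 without control library 2. Pomt2, whose exons overlap Gstz1 on the opposite strand, was at 0.509 and 2.06 in controls and 0.175, 0.837 and 0 after PNMC.

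The remaining glutathione genes had overlapping groups, apart from Gstm6. Gstm6, another mu class gene, stood at 1.64 and 3.31 in controls and 3.91, 3.79 and 3.77 after PNMC, a log2 change of 0.51 (95% interval from -0.23 to 1.26), which was 0.16 without control library 1. Gstm6 shares 11.5% and Gstm1 23.1% of their 50-base stretches with other genes, so both are uncertain. Gsta4, the alpha class enzyme that acts on aldehydes of lipid peroxidation, was at 8.85 and 13.9 in controls and 13.5, 16.2 and 11.03 with PNMC, with control library 1 lowest. Gstcd, named for a transferase-like C-terminal domain, was at 6.55 and 11.3 in controls and 10.2, 3.92 and 9.01 with PNMC, and its exons overlap Ints12 on the opposite strand (17.9 and 18.5 in controls, 26.3, 18.4 and 20.9 after PNMC). Gstm1 ran from 0.364 in control library 1 to 6.07 in control library 2, which spans all 3 PNMC values. Gstk1, of mitochondria and peroxisomes, did likewise, from 0.645 to 2.87. Gstt2 was at 0.951 and 1.86 in controls and 1.14, 0.512 and 0.190 with PNMC, a log2 change of -0.59 (95% interval from -1.55 to 0.37). Gstm7 stayed at or under 1.39 in every library. Gsta3, Gstm4, Gstt1, Gstp3, Gsta1 and Gstm3 were above 0 without passing the filter, and Gsta2, Gstm2, Gstt3 and Gstt4 were at 0 throughout.

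The glucuronide family left little to compare. Ugt2b38 was listed at 1.503 and 0.927 in controls and 0.393, 0.4696 and 1.75 after PNMC, and PNMC library 3 held its highest value and PNMC library 1 its lowest. It shares 37.4% of its 50-base stretches with other genes, most of them with Ugt2b5, which was listed at 0. Ugt2a1, Ugt1a6b and Ugt1a6a were above 0 in PNMC library 3 alone, at 0.798, 0.649 and 0.194, and Ugt2b37 in PNMC library 1 alone, at 0.163. The Ugt1a genes share their downstream exons, and between 58.2% and 100% of the stretches of each recur in another gene, so values of single Ugt1a genes are uncertain. Ugt1a1, which conjugates bilirubin, was at 0 in all 5 libraries.

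Sult2b1, the cholesterol sulfotransferase, had the smallest p of any member. It was listed at 7.66 and 5.72 in control libraries 1 and 2 and at 1.21, 2.895 and 1.99 in PNMC libraries 1, 2 and 3. Every PNMC value was below both controls, with means of 6.69 ± 1.38 (SD, n = 2) and 2.03 ± 0.843 (SD, n = 3). The log2 change was -1.37 (SE 0.36, 95% interval from -2.13 to -0.60, limma adjusted p = 0.866), and with 1 library left out it ran from -1.57 to -1.16. Lmtk3 and Gm31597, whose exons overlap Sult2b1 on the opposite strand, were at or under 1.07 in every library.

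Of the 6 sulfotransferases that passed, 4 had higher and 2 lower fitted values, with a median log2 change of 0.17, which was 0.059 without control library 1, 0.049 without control library 2 and 0.096 without PNMC library 2. Apart from Sult2b1 and Sult2a4 their groups overlapped. Sult2a4, of the hydroxysteroid subfamily, was at 4.74 and 4.201 in controls and 5.58, 6.61 and 5.37 after PNMC, a log2 change of 0.32 (95% interval from -0.30 to 0.95) without overlap. It shares 25.5% of its 50-base stretches with other genes and is uncertain. Sult4a1, a member best known from brain, was at 5.27 and 6.75 in controls and 10.6, 4.32 and 6.15 with PNMC, with PNMC library 1 highest and PNMC library 2 lowest. Sult5a1 stood at 7.88 and 4.17 in controls and 4.73, 9.099 and 7.799 after PNMC, and control library 2 was lowest. Sult1d1, which acts on catecholamines, was at 2.93 and 5.48 in controls and 3.32, 5.64 and 6.01 with PNMC, with control library 1 lowest. Sult1c1 was at 1.97 and 1.10 in controls and 0.920, 1.43 and 1.69 with PNMC. Sult2a7, Sult6b2, Sult2a1, Sult6b1 and Sult3a2 were above 0 without passing. The best known drug and oestrogen sulfotransferases, Sult1a1 and Sult1e1, were among the 10 at 0.

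Aldh9a1, which oxidises trimethylaminobutyraldehyde on the way to carnitine, had the highest listed level of the aldehyde dehydrogenases. Of the 10 that passed, 5 had higher and 5 lower fitted values, with a median log2 change of 0.16. Without Aldh1b1 and Aldh1l1, whose direction the filter favoured, these were 3 and 5, with a median of -0.11. Aldh9a1 was at 174 and 183 in controls and at 186, 162 and 177 after PNMC, so the PNMC values enclosed both controls. Its log2 change was -0.030 (95% interval from -0.31 to 0.25), the narrowest interval of the 37 members, and it was 0.057 after scaling to the median. Aldh1a2 (RALDH2), which makes retinoic acid from retinaldehyde, was at 26.2 and 32.8 in controls and 27.9, 21.8 and 24.5 after PNMC, with control library 2 highest and PNMC library 2 lowest. The other retinaldehyde dehydrogenases were low: Aldh1a1 stayed at or under 0.996 in every library, and Aldh1a3 was above 0 in 3 libraries.

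Aldh6a1, the mitochondrial enzyme of valine breakdown, was at 20.8 and 17.8 in controls and 16.7, 21.05 and 13.4 after PNMC, with PNMC library 3 lowest. Aldh2, which oxidises acetaldehyde in mitochondria, was at 15.8 and 18.4 in controls and 15.8, 16.3 and 12.4 with PNMC, again with PNMC library 3 lowest. Aldh6a1 exons overlap Bbof1 on the opposite strand, which was at 4.57 and 7.19 in controls and 2.89, 2.51 and 3.41 after PNMC. The intervals of both lay within 1 log2 unit (Aldh6a1 95% interval from -0.70 to 0.33, Aldh2 95% interval from -0.69 to 0.29).

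Aldh18a1, which makes the precursor of proline, was at 12.9 and 11.04 in controls and 16.7, 15.4 and 18.3 after PNMC, where all 3 values were above both controls. Its log2 change was 0.46 (SE 0.23, 95% interval from -0.030 to 0.94, limma adjusted p = 0.986). Aldh4a1, which degrades proline, was at 7.42 and 10.4 in controls and 5.804, 6.51 and 4.45 after PNMC, where all 3 values were below both controls. The log2 change of Aldh4a1 was -0.59 (SE 0.29, 95% interval from -1.22 to 0.039, limma adjusted p = 0.986), and it was -0.37 without control library 2. In the reference, Aldh4a1 shares 45% of its 50-base stretches with the overlapping gene model Gm21969.

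Aldh7a1, the antiquitin of lysine breakdown, was also higher after PNMC without overlap, at 10.9 and 11.6 in controls and 12.3, 16.6 and 15.4, a log2 change of 0.35 (95% interval from -0.16 to 0.86). Its exons overlap Phax on the opposite strand, which was at 5.14 and 5.88 in controls and 8.46, 5.04 and 4.87 after PNMC. Aldh3a2, the fatty aldehyde dehydrogenase, was at 2.22 and 3.04 in controls and 2.51, 4.15 and 6.66 with PNMC, with PNMC library 3 highest and an overlap at PNMC library 1. Aldh1b1, a mitochondrial enzyme close to Aldh2, was at 0.304 and 0.713 in controls and 1.04, 1.27 and 1.56 with PNMC. Aldh1l1, a folate enzyme, was at 0.4896 and 0 in controls and 1.59, 0.533 and 2.3003 with PNMC, and its exons overlap Gm45901 on the same strand, which was at 1.89 and 1.51 in controls and 0.333, 0.742 and 0.894 after PNMC. Besides Aldh1a1, Aldh1a3 and Aldh16a1, another 8 aldehyde genes were above 0 without passing, with highest values from 0.130 for Aldh3b3 to 0.958 for Aldh3a1.

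Among the aldo-keto reductases, Akr1b3 (aldose reductase, which turns glucose into sorbitol) had the highest listed level of any member. Of the 7 that passed, 4 had higher and 3 lower fitted values, with a median log2 change of 0.015, and all 7 overlapped between groups. Akr1b3 was at 243 and 282 in controls and 342, 283 and 282 after PNMC. Control library 1 was lowest and PNMC library 1 highest, and control library 2 lay between the PNMC values. The log2 change was 0.20 (SE 0.13, 95% interval from -0.080 to 0.48, limma adjusted p = 0.993). It was 0.093 without control library 1, 0.11 without PNMC library 1 and 0.31 without control library 2. In the reference, 59.9% of its 50-base stretches recur in other gene models, mostly Gm6644, which the table does not list under that name.

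Akr1a1, the aldehyde reductase that also takes part in ascorbate synthesis in mice, was at 82.9 and 107 in controls and 105, 88.1 and 103 after PNMC. Its control values enclosed all 3 PNMC values, and its interval ran from -0.29 to 0.41 on the log2 scale. Akr1cl was at 8.16 and 10.9 in controls and 11.4, 8.54 and 7.38 with PNMC, and Akr1b8 at 4.92 and 3.07 in controls and 4.88, 1.93 and 4.204 with PNMC, both overlapping. Akr1c21 and Akr1e1 passed the filter with no value above 2.55. Akr1b7 was at 1.12 and 0.560 in controls and 0.168, 0.143 and 1.90 with PNMC. Akr1c18, which inactivates progesterone and is abundant in luteal cells, was above 0 in 3 libraries and reached 0.641. Akr1c6, Akr1c13 and Akr1c20 were at 0 throughout.

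Many members lie side by side in the genome, and in several rows a single gene carried most of the listed level. In the RefSeq gene order, 70 members fell into 15 rows of adjacent members, and 30 stood apart. Of the genes in rows, 20 of 70 passed the filter and 28 were at 0, against 17 of 30 and 3 for the genes standing apart. Ugt1a1 was counted as standing apart, although its exons overlap those of the Ugt1a row. Of the genes at 0 in rows, 6 were in the Ugt1a row, 9 in the Ugt2 and Sult1 row and 5 in the Sult2a row. The contrast is therefore not separate from that between families. In the row of 7 Gstm genes, Gstm5 had a mean of 112.4 and the next, Gstm6, 3.28. In the row of 4 Akr1b genes, Akr1b3 had 286.5 and Akr1b8 3.80. In the row of 8 Sult2a genes, Sult2a4 had 5.30 and Sult2a7 0.397. The longest row held 13 Ugt2 and Sult1 genes, of which 9 were at 0, and Sult1d1 had 4.68 and Ugt2b38 1.01. The row of 9 with Akr1c genes and Akr1e1 reached no mean above 1.23. Neighbours of 1 family are related copies, and those that share sequence are not independent measurements.

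**Figure D4:**
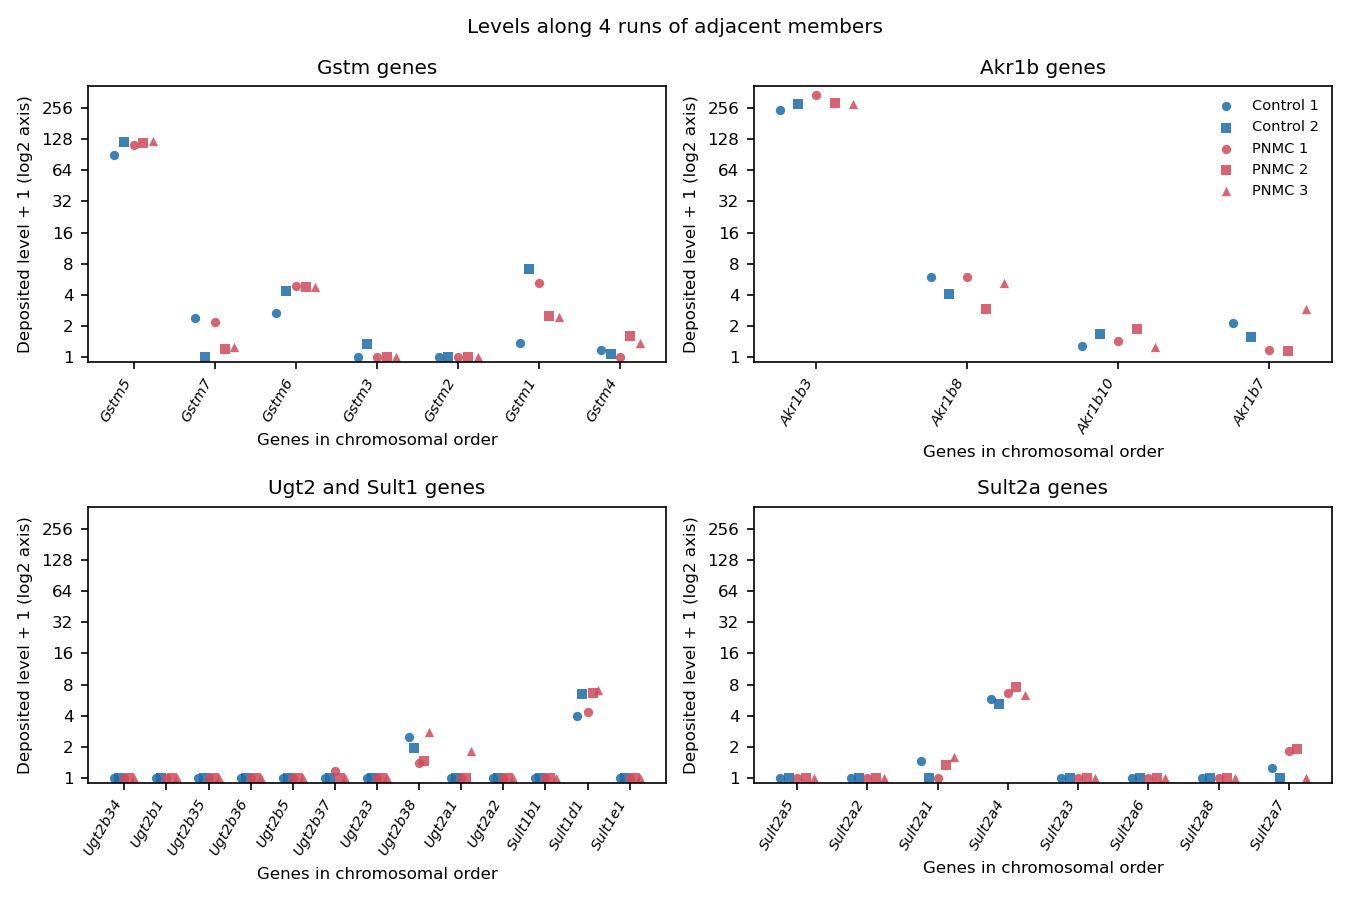
Deposited level plus 1 on a log2 axis (vertical) for genes in chromosomal order (horizontal) along 4 rows of adjacent members; each point is 1 library, blue for control and red for PNMC. In the Gstm and Akr1b rows the first gene, Gstm5 or Akr1b3, stands above the others in all 5 libraries.

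The genes that supply and surround these enzymes were described from 8 lists. None of their genes passed limma's adjusted threshold, and 3 of the 85 tested (3.53%, against 4.99% of all genes) were under 0.05 before adjustment. These were Clic1, Ggt6 and Ugp2, all lower after PNMC (3.27% of all genes). The groups did not overlap in 2 of 10, 1 of 12, 2 of 7 and 1 of 8 tested genes in the first 4 lists below. In the last 4 lists they did not overlap in 4 of 10, 3 of 13, 6 of 10 and 2 of 15, against 19.9% of all genes. Clic1, Ugt8a and Papss2, lower after PNMC, and Nqo1, higher, were among them. Of the glutathione transferases outside the rule, 10 of 15 passed the filter, 8 with higher and 2 with lower fitted values (median 0.13), led by the microsomal Mgst3 at 113 and 161 in controls and 170.4, 144 and 142 after PNMC. Clic1, a channel protein with a transferase fold, was at 1.32 and 2.28 in controls and 0.505, 0.735 and 0 with PNMC, and the translation factor gene Eef1g at 11.7 and 14.4 in controls and 12.8, 16.7 and 18.8 with PNMC. Of the genes that make and recycle glutathione, all 20 were in the table and 12 passed, 5 higher and 7 lower (median -0.073). Ggct, which cleaves gamma-glutamyl amino acids, was the most abundant of them at 111 and 121 in controls and 136, 119 and 127 with PNMC, and the transpeptidase gene Ggt6 was at 5.22 and 4.42 in controls and 1.27, 2.99 and 1.903 with PNMC, lower without overlap (limma adjusted p = 0.967). Gss, glutathione synthetase, was at 7.28 and 4.66 in controls and 3.49, 8.95 and 1.12 with PNMC.

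Of 11 genes for UDP-glucuronate supply and other glycosyltransferases of this kind, 7 passed, 2 higher and 5 lower (median -0.25). Ugp2, which makes UDP-glucose, was at 6.21 and 7.73 in controls and 4.87, 3.37 and 3.28 after PNMC, without overlap (log2 change -0.73, limma adjusted p = 0.967). Uxs1, which turns UDP-glucuronate into UDP-xylose, was at 7.702 and 16.04 in controls and 11.1, 10.4 and 13.2 with PNMC, and Ugt8a at 2.82 and 2.39 in controls and 1.37, 1.26 and 1.39 with PNMC. Of 13 genes for sulfate activation and transfer, 8 passed, 3 higher and 5 lower (median -0.13). The PAPS synthases Papss1 and Papss2 were at 18.8 and 28.6 and at 1.38 and 1.62 in controls, and at 18.8, 20.6 and 14.4 and at 0.458, 0.769 and 0.325 after PNMC.

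Of 21 genes of retinoid and alcohol oxidation, 10 passed, 6 higher and 4 lower (median 0.15). Adh5, the formaldehyde-clearing alcohol dehydrogenase, was at 188 and 186 in controls and 187, 225 and 219.7 after PNMC. Rdh10, which makes the retinaldehyde that Aldh1a2 uses, was at 9.81 and 13.3 in controls and 14.7, 17.98 and 15.2 with PNMC, higher without overlap (limma adjusted p = 0.993). Crabp2, which binds retinoic acid, was at 10.5 and 8.31 in controls and 5.46, 8.12 and 6.95 with PNMC, lower without overlap (limma adjusted p = 0.993).

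Of 20 other carbonyl reductases 13 passed, 6 higher and 7 lower (median -0.069), with Dhrs1 at 77.7 and 75.6 in controls and 99.6, 77.2 and 73.9 with PNMC and the carbonyl reductase gene Cbr1 at 7.09 and 7.63 in controls and 2.54, 7.104 and 3.49 with PNMC. Nqo1, a quinone reductase and a common readout of Nrf2 activity, was at 4.58 and 4.03 in controls and 6.03, 7.16 and 6.43 after PNMC (log2 change 0.51, 95% interval from -0.11 to 1.12, limma adjusted p = 0.993). Nrf2 activity itself was not tested, and Gclc, Gclm and Gsr of the glutathione list missed the filter. Of 15 exporters of conjugates and related carriers 10 passed, 4 higher and 6 lower (median -0.084), with Slco4a1 at 32.9 and 32.02 in controls and 42.96, 45.3 and 36.1 with PNMC, higher without overlap. Abcc6 was at 1.65 and 1.17 in controls and 0.614, 0.392 and 0.376 with PNMC, lower without overlap. Of 24 transcriptional regulators 15 passed, 7 higher and 8 lower (median -0.055), with Bach2, a repressor at antioxidant response elements, at 149 and 192 in controls and 186, 166 and 207 with PNMC. Rarg, a retinoic acid receptor, was at 13.6 and 14.8 in controls and 9.44, 8.44 and 11.9 with PNMC, lower without overlap, and Mafk, a partner of Nrf2, at 8.0005 and 3.67 in controls and 0.501, 4.91 and 5.195 with PNMC.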

How the data were processed

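The authors deposited 1 table of normalised expression signal per gene symbol and library, with no identifiers or coordinates and no stated unit. Libraries were made with Smart-seq2, per the labels' protocols, which keeps no strand information, so reads of overlapping genes on opposite strands cannot be told apart. Per the submitters' processing notes, the genome build was GRCm39 and the tools were HISAT2 2.0.5, Trimmomatic, DESeq2 1.16.1 and HTSeq; no source used here says which of them made the values. In pairs of libraries, ratios of values under 1 showed no common step (at most 1.15% of genes in 1 bin of 0.02 log2 units), so whole reads were not recovered, no count test was run and depth limits precision to an unknown extent.

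Columns were matched to samples by title. Values were compared as log2(value + 1) with limma 3.58.1 in R 4.3.3 (trend and robust variances, no covariate) over the 12734 genes with at least 1 in at least 2 of 5 libraries, with Benjamini-Hochberg adjustment at 0.05 over all of them. Of the tests planned by unit, the one for normalised values applied. The procedure was tested on 5 simulated data sets with independent normal noise. Each set held 200 changed genes, and the noise had the variances that the fit itself had estimated. The procedure called 87.4% of genes given a 2-fold change and 100% of those given a 4-fold change. Changes were put only into genes with higher levels, so these shares do not cover the members with low values. They hold for that number of changed genes and that noise, and do not give the power of the real comparison. Per-library values are given for the 3 highest members of a family and for the 2 higher and 2 lower members of smallest p. Other members that passed the filter may be named, with their values or a range. From each list of related genes the highest and the 2 with the smallest p may be named. A gene that this rule names is not reported here. Genes that overlap or share sequence with a member were named in addition. The members and lists were chosen with earlier results of these data known. Shared sequence and exon overlap come from GENCODE M21, and promoters, gene order and names from RefSeq GRCm38.p6, where 100 of 100 members matched by symbol.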

Additional observations from a re-analysis of the deposited data

How the results depend on the processing

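The fit was repeated with quantile normalisation, with scaling to the median, with a pseudocount of 0.1, without the filter, with a minimum of 10 in 2 libraries, without trend and robust variances, with the replicate block, and without each library in turn. No member passed the adjusted threshold in any of these fits, where the lowest adjusted p among members ran from 0.57 to 1. The number of all genes called was 0 except without PNMC library 1, where it was 1. With no filter 69 members were tested, and 14 with a minimum of 10. Members with higher and lower fitted values numbered 21 and 16 after median scaling, and 12 and 21 without control library 1.

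With 1 library left out, the median change over the members ran from -0.079 to 0.12. It ran from -0.36 to 0.35 in the glutathione, -0.075 to 0.18 in the aldehyde and -0.13 to 0.15 in the aldo-keto family. In the sulfate family it ran from 0.049 to 0.19. The filter was applied anew in each of these fits, which tested 33 to 36 members, so the medians cover changing sets of genes. Aldh1l1 was not tested without PNMC library 1 or 3, where the aldehyde median was -0.075 and -0.033. A turn of sign in these medians therefore cannot be assigned to the left-out library alone. The aldehyde median, 0.16 as reported, was -0.11 with a minimum of 10 and 0.25 after median scaling. Under the replicate block it was 0.10. Library numbers are shared between the groups, but deviations of same-numbered libraries correlated at -0.06 and -0.04, so the block rests on a number alone; it takes PNMC library 3 out of the comparison and called no member.

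The sign of the change turned with 1 library left out in 19 of the 37 members tested. Their ranges were -0.13 to 0.24 for Akr1a1, -0.43 to 0.017 for Akr1b7, -0.40 to 0.17 for Akr1b8, -0.29 to 0.25 for Akr1c21, -0.25 to 0.12 for Akr1cl, -0.17 to 0.21 for Akr1e1, -0.075 to 0.025 for Aldh9a1, -0.045 to 0.55 for Gsta4, -0.58 to 0.14 for Gstcd, -0.78 to 0.45 for Gstk1, -1.16 to 1.21 for Gstm1, -0.031 to 0.39 for Gstm5, -0.69 to 0.090 for Gstm7, -0.36 to 0.31 for Gstp1, -0.41 to 0.26 for Gstp2, -0.36 to 0.14 for Sult1c1, -0.15 to 0.57 for Sult1d1, -0.18 to 0.39 for Sult4a1 and -0.15 to 0.63 for Sult5a1. After median scaling the sign turned in Akr1cl (0.013), Aldh9a1 (0.057) and Gstp1 (0.057), with a pseudocount of 0.1 in Akr1c21 (-0.042) and Gstm7 (0.39), and under the replicate block in Akr1cl (0.060), Gstm7 (0.066) and Gstp2 (0.26). The other 18 members kept their sign in every fit that tested them. The cause was not tested. Leaving out a library leaves 1 control or 2 PNMC libraries, and a lone control is assumed to vary like the PNMC group. Read depth is unknown, so how far it limits the low members cannot be stated.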
